A study of Mus musculus with 79 samples.

Results

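The difference between circadian times in the response of liver to low oxygen was measured in mice labelled Per1,2 double knock-out (KO). All 15 KO liver libraries of the constant-darkness experiment were taken, of 79 libraries in the series. The KO mice were of the C57BL/6 strain, aged 3 months, and had been in constant darkness for 2 days. They breathed 6% oxygen, or 21% oxygen (synthetic air) as control, for 4 h, and the liver was frozen directly afterwards. Exposure ran from circadian time (CT) 16 to 20 h or from CT 4 to 8 h, as labelled. By convention these hours are called subjective night and subjective day. Whether the KO mice kept a rhythm of their own in darkness was not tested. There were 3 libraries at CT16-20 in 6% oxygen, 4 at CT16-20 in 21% oxygen, 4 at CT4-8 in 6% oxygen and 4 at CT4-8 in 21% oxygen. The 16 wild-type (WT) livers, from mice of the same strain and age and with the same darkness, times and gases, are used where a value in KO is set against WT. The series' text calls the replicates of a group separate mice.

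The quantity described is an interaction: the response (6% over 21% oxygen, log2) at CT16-20 minus the response at CT4-8. A positive interaction means a higher response at CT16-20. Values are log2 ± SE with a Benjamini-Hochberg adjusted p from edgeR's quasi-likelihood test over all genes. A gene is called at an adjusted p under 0.05. Levels are CPM, counts per 1 M of the TMM-scaled library total, and are given in replicate order.

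As background, PER1 and PER2 are repressors of the clock loop in which CLOCK and BMAL1 (the product of Arntl) switch on their own inhibitors. The loop drives daily rhythms of liver transcription through output factors such as DBP and the REV-ERB receptors. Cells answer low oxygen mainly by stabilising the HIF alpha subunits, which switch on genes for glycolysis, angiogenesis and lipid storage. The liver clock and the feeding rhythm also time bile acid, cholesterol and fatty acid synthesis.

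Library totals were 2.80 to 3.77 M counts at CT16-20 in 6% oxygen, 1.44 to 2.02 M at CT16-20 in 21%, 1.96 to 2.48 M at CT4-8 in 6% and 1.59 to 1.91 M at CT4-8 in 21%. The 6% libraries of CT16-20 were thus the deepest, and counts thinned to the smallest total were run as an alternative. All 10 hepatocyte markers were above 0 in all 15 libraries. Per1 stood at 15.7 to 31.3 CPM at CT16-20 in 6%, 23.9 to 36.3 in 21%, 14.9 to 21.2 at CT4-8 in 6% and 20.2 to 35.3 in 21%. Per2 stood at 20.2 to 32.1, 4.62 to 11.4, 19 to 30.9 and 4.88 to 11.4 CPM in the same order of groups. Reads of both targeted genes were present. The deleted part of either gene is not given in the sources used here, so these counts do not check the labels, and genotype is used as labelled. CT16-20 21% replicate 3 and CT4-8 6% replicates 1 and 4 stood highest in acute-phase genes, and a fit without these 3 libraries was added after the data were seen. In bulk tissue, fewer cells of a type and less RNA per cell cannot be told apart.

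Of 8520 genes tested in KO liver, 1 was called for the interaction (0.0117%), with a positive sign. It was Cyp7a1, which encodes cholesterol 7 alpha-hydroxylase, the rate-limiting enzyme of the classical bile acid pathway (mm10, chromosome 4, 6265612 to 6275633, minus strand, a protein-coding gene). Cyp7a1 stood at 96.1, 49.2 and 72.2 CPM at CT16-20 in 6% oxygen, against 5.95, 13.2, 9.80 and 7.91 CPM at CT16-20 in 21%. At CT4-8 it stood at 21.3, 15.5, 32.1 and 34.7 CPM in 6% oxygen, against 85.8, 28.8, 62.7 and 74.7 CPM in 21%. All 3 libraries in 6% lay above all 4 in air at CT16-20, while at CT4-8 the 6% libraries were the lower ones and overlapped 1 air library, replicate 2. The response was 2.98 ± 0.39 at CT16-20 (adjusted p = 0.00037) and -1.29 ± 0.33 at CT4-8 (adjusted p = 0.03), and the interaction was 4.26 ± 0.51 (95% interval 3.17 to 5.36, adjusted p = 0.0043).

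Cyp7a1 was the only gene of the 8520 called in opposite directions at the 2 times. In air its level at CT16-20 was lower than at CT4-8 (-2.77 ± 0.39, adjusted p = 0.026), in a comparison with 2 calls in all (0.0235%). In 6% oxygen the difference between times was 1.49 ± 0.34 and not called (adjusted p = 0.47), again in a comparison with 2 calls (0.0235%, and 5.38% at an unadjusted p under 0.05). The interaction stayed called when any 1 library was left out, at 4.00 to 4.50 (adjusted p = 1.8e-05 to 0.03). The call at CT4-8, on which the opposite directions rest, was less firm. It was lost in the joint fit with WT (adjusted p = 0.092) and in a fit on the CT4-8 libraries alone (adjusted p = 0.064), without the 3 libraries highest in acute-phase genes (adjusted p = 0.14), and without any of replicates 1, 3 and 4 in air or replicates 1, 2 and 3 in 6% oxygen (adjusted p = 0.05 to 0.089). The call in air between times was lost without CT4-8 replicate 1, 3 or 4, any of the 4 CT16-20 air libraries, or CT16-20 6% replicate 3 (adjusted p = 0.056 to 0.23). This call was also lost without the 3 libraries highest in acute-phase genes (adjusted p = 0.17).

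In WT liver Cyp7a1, on the scale of the joint fit, stood at 88.5, 89.3, 43.0 and 53.9 CPM at CT16-20 in 6% oxygen, against 56.4, 32.0, 61.0 and 44.5 CPM in 21%. At CT4-8 the WT levels were 9.42, 20.9, 14.5 and 13.0 CPM in 6%, against 14.7, 33.1, 85.0 and 15.2 CPM in 21%. The WT groups overlapped at both times. The interaction in WT was 1.87 ± 0.70 (adjusted p = 0.22), the same sign as in KO, and the difference between KO and WT was 2.39 ± 0.96 (95% interval 0.41 to 4.36, adjusted p = 0.47), which is not called.

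**Figure D1:**
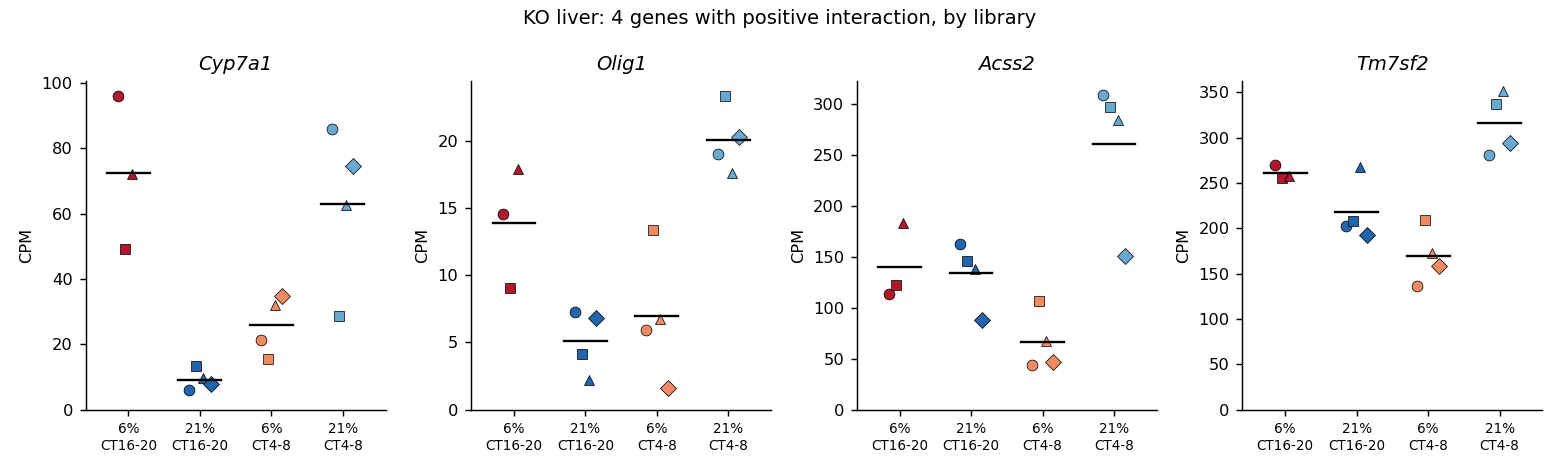
Level in CPM (vertical axes, from 0) of Cyp7a1, Olig1, Acss2 and Tm7sf2 in each KO liver library by oxygen and time, with marker shape for replicate number and a bar for the group mean. The 3 libraries of Cyp7a1 in 6% oxygen at CT16-20 sit at 49.2 to 96.1 CPM, above the 4 in 21% at 5.95 to 13.2 CPM.

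No other gene passed the threshold, and the next values are given as not called. At an unadjusted p under 0.05 there were 657 genes (7.71%), 286 with a higher and 371 with a lower response at CT16-20. DESeq2 called 26 genes, Cyp7a1 among them. For 4371 genes (51.3%) the 95% interval of the interaction lay within -1 to 1, and the median SE was 0.333, so for the other genes a difference of a doubling between times was not bounded at this depth and number of mice. Leaving out CT4-8 6% replicate 2 gave 13 calls, and leaving out CT4-8 21% replicate 3 or CT16-20 21% replicate 3 gave 2 each.

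Tm7sf2, a sterol reductase of cholesterol synthesis, had 270, 256 and 257 CPM at CT16-20 in 6% oxygen, against 202, 208, 268 and 192 CPM in 21%, and at CT4-8 had 137, 210, 173 and 158 CPM in 6%, against 281, 338, 352 and 294 CPM in 21%. The groups overlapped at CT16-20 and did not overlap at CT4-8, where the 6% libraries were lower. Its interaction was 1.16 ± 0.22 (adjusted p = 0.092), and it was called without CT4-8 6% replicate 2 (adjusted p = 0.014) or CT16-20 21% replicate 3 (adjusted p = 0.042). Tm7sf2 was also called in the joint fit (adjusted p = 0.026) and by DESeq2 (adjusted p = 0.00033), and not in the other 18 alternatives. Olig1, a helix-loop-helix transcription factor known from oligodendrocytes, had 14.6, 9.08 and 17.9 CPM at CT16-20 in 6%, against 7.27, 4.18, 2.18 and 6.85 CPM in 21%. At CT4-8 Olig1 had 5.95, 13.4, 6.77 and 1.63 CPM in 6%, against 19, 23.3, 17.6 and 20.3 CPM in 21%. Like Cyp7a1 it was higher in 6% at CT16-20 and lower at CT4-8. Unlike those of Cyp7a1, its groups did not overlap at either time, and its rise at CT16-20 was not called. The response of Olig1 was 1.42 ± 0.43 at CT16-20 (adjusted p = 0.063) and -1.49 ± 0.37 at CT4-8 (adjusted p = 0.021), and the interaction was 2.90 ± 0.56 (adjusted p = 0.12, or 0.0058 without CT4-8 6% replicate 2). The joint fit (adjusted p = 0.043) and DESeq2 (adjusted p = 0.0014) called it too, and the other 19 alternatives did not.

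Rpl14-ps1, a processed pseudogene of a ribosomal protein gene, had the lowest p among the negative interactions (-1.34 ± 0.25, adjusted p = 0.092). It had 35.1, 36.1 and 20.3 CPM at CT16-20 in 6% oxygen, against 81.9, 76.6, 75.7 and 71.7 CPM in 21%, and 53.2 to 77.2 CPM over the 8 libraries of CT4-8. Counts of a pseudogene and of its parent gene can be split arbitrarily, so its value is uncertain. Without CT4-8 6% replicate 2 or CT4-8 21% replicate 3 it was called (adjusted p = 0.032 and 0.034). Rpl14-ps1 was also called with thinned counts (adjusted p = 0.021) and by DESeq2 (adjusted p = 0.0014), and not in the other 18 alternatives. The remaining 15 of the 20 genes with the smallest p, other than Acss2 below, had adjusted p = 0.38 each. Positive among them were the mitochondrial cytochrome oxidase subunit gene Cox8a (0.91 ± 0.22), the reductase gene Cyb5r3 (0.99 ± 0.24), the DNA repair nuclease gene Dclre1a (1.65 ± 0.39), Trappc4 (0.93 ± 0.23), Abtb2 (1.61 ± 0.40), Rpl19 (0.99 ± 0.26), Aldh1a7 (0.79 ± 0.19), Gstm6 (0.91 ± 0.22) and the farnesyl diphosphate synthase gene Fdps (1.16 ± 0.29). Negative were the lipopolysaccharide-binding protein gene Lbp (-1.97 ± 0.48), the chemokine gene Cxcl13 (-2.24 ± 0.564), Serpina3m (-1.12 ± 0.29), Pcp4l1 (-1.78 ± 0.45), the clathrin adaptor gene Ap2a1 (-1.41 ± 0.35) and the endoplasmic reticulum co-chaperone gene Dnajc3 (-1.0 ± 0.25). Without the 3 libraries highest in acute-phase genes, Lbp had -0.92, Serpina3m -0.64, Pcp4l1 -1.11 and Cxcl13 -1.38. Lbp was called without CT4-8 6% replicate 2 (adjusted p = 0.032), in the joint fit (adjusted p = 0.038) and by DESeq2 (adjusted p = 0.0084). DESeq2 also called Aldh1a7, Cyb5r3, Dclre1a, Cox8a, Gstm6, Fdps, Abtb2, Cxcl13, Serpina3m, Pcp4l1 and Dnajc3 (adjusted p = 0.0084 to 0.049). It did not call Trappc4, Rpl19 or Ap2a1. Aldh1a7, Gstm6 and Serpina3m have close paralogs, and Rpl19 has pseudogene copies, so their counts are uncertain.

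The responses themselves were broad at both times. At CT16-20, 384 genes were called (4.51%), 204 higher and 180 lower in 6% oxygen, and at CT4-8, 476 were called (5.59%), 241 higher and 235 lower. Both times shared 197 calls, which is 51.3% of the calls at CT16-20 and 41.4% of those at CT4-8. Of these, 112 were higher at both times, 84 lower at both and 1, Cyp7a1, opposite. Among genes called at CT16-20 only, 165 of 187 had the same sign at CT4-8, and among those called at CT4-8 only, 240 of 279 had the same sign at CT16-20. Of these genes called at a single time, 156 had an interaction at unadjusted p under 0.05, a level that 7.71% of all genes passed. They were chosen by a call at 1 time and not the other, and the interaction is the difference of the same 2 responses. A raised count is thus built in, and it does not test for a difference between times. For the interaction itself edgeR called none of these genes and DESeq2 called 13, among them Acss2, Olig1 and Tm7sf2. Across genes, which are not independent replicates, the 2 responses had a Pearson r of 0.52 and a Spearman rho of 0.39. The count at CT16-20 fell to 167, 180 and 229 without 6% replicate 1, 2 and 3 and to 230 without 21% replicate 2, and the count at CT4-8 fell to 313 and 314 without 21% replicate 1 and 2 and to 287 without 6% replicate 3.

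Hilpda, an inhibitor of lipolysis at lipid droplets and a HIF target, was among the genes that rose strongly at both times. Hilpda had 263, 168 and 225 CPM at CT16-20 in 6% oxygen, against 9.25, 8.35, 5.44 and 13.2 CPM in 21%, and 114, 214, 196 and 202 CPM at CT4-8 in 6%, against 5.43, 9.77, 7.25 and 8.23 CPM in 21%. The 6% and air libraries were far apart at each time. The response was 4.58 ± 0.27 at CT16-20 and 4.56 ± 0.26 at CT4-8 (adjusted p = 1.5e-09 and 1.3e-09), with an interaction of 0.02 ± 0.42 (95% interval -0.86 to 0.90). Vegfa, the main angiogenic ligand, had an interaction of 0.28 ± 0.22 (95% interval -0.18 to 0.75) on responses of 1.48 ± 0.16 and 1.20 ± 0.15 (adjusted p = 1.5e-05 and 5.1e-05). Rsrp1, which encodes an arginine- and serine-rich protein, fell at both times, with responses of -2.29 ± 0.19 and -2.42 ± 0.18 (adjusted p = 2.9e-07 and 2.2e-08), as did the pioneer factor gene Foxa2, with -1.65 ± 0.27 and -2.02 ± 0.28 (adjusted p = 0.001 and 0.00011).

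**Figure D2:**
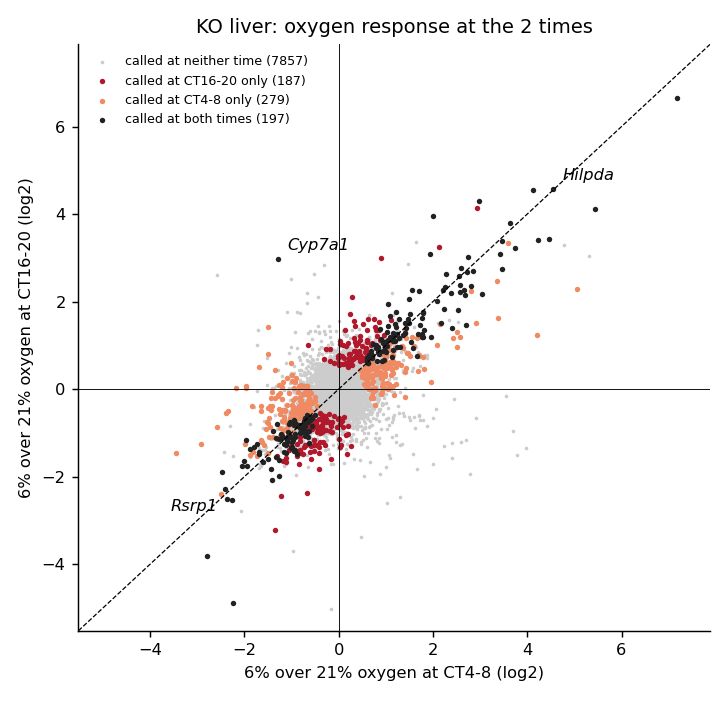
Response to 6% against 21% oxygen (log2) at CT16-20 (vertical axis) against that at CT4-8 (horizontal axis), with 1 point for each of 8520 genes in KO liver and colours for the times at which a gene was called; the dashed line marks equal responses. Of 197 genes called at both times, Cyp7a1 is the only one with a positive response at CT16-20 and a negative one at CT4-8, and Hilpda and Rsrp1 lie near the line.

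Gene lists were then read for the interaction by their counts at unadjusted p under 0.05, since edgeR called no member other than Cyp7a1. The background over all 8520 genes was 3.36% higher and 4.35% lower at CT16-20, with a median interaction of -0.02. HIF targets other than glycolytic genes had 0 of 21 members at that p in either direction (median -0.08; edgeR and DESeq2 called none), although 8 rose and 1 fell at CT16-20 (backgrounds 2.39 and 2.11%) and 11 rose and 1 fell at CT4-8 (2.83 and 2.76%). Glycolytic genes had 1 higher and 1 lower of 16 (median 0.30). Immediate early genes, the first transcripts after a stimulus, had 0 higher and 3 lower of 19 (median -0.71), with 8 risen at CT16-20 and 13 at CT4-8. The 3 were Jund, Egr1 and Btg2. The list's count was 0 without the 3 libraries highest in acute-phase genes, and 6 and 5 without CT4-8 6% replicate 2 and 3. It was 1 without CT4-8 6% replicate 1, CT16-20 21% replicate 2 or 3, or CT16-20 6% replicate 2 or 3. In each of these fits the count over all genes at that p moved in the same direction, though only slightly without CT4-8 6% replicate 3. Jund, an AP-1 subunit, had 311, 252 and 209 CPM at CT16-20 in 6% oxygen, against 147, 144, 155 and 161 CPM in 21%, and 450, 236, 397 and 558 CPM at CT4-8 in 6%, against 122, 145, 115 and 133 CPM in 21%. Jund thus rose at both times, by 0.76 ± 0.21 (adjusted p = 0.039) and 1.67 ± 0.20 (adjusted p = 1.9e-05), with an interaction of -0.91 ± 0.29 (adjusted p = 0.44), which was called without CT4-8 6% replicate 2.

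Bile acid genes other than Cyp7a1 gave smaller values. Of 19 members, 3 had a higher response at CT16-20 at unadjusted p under 0.05 and 0 a lower one. The others were the sterol 12 alpha-hydroxylase gene Cyp8b1 (1.5 ± 0.57, adjusted p = 0.55) and the bile acid uptake transporter gene Slc10a1 (0.58 ± 0.24, adjusted p = 0.57). Nr0b2, which encodes the repressor SHP that lowers Cyp7a1 transcription, had 99.3, 87.5 and 90.4 CPM at CT16-20 in 6% oxygen, against 90.5, 96.8, 106 and 87.0 CPM in 21%, and 84.6, 98.3, 60.1 and 123 CPM at CT4-8 in 6%, against 66.3, 56.4, 59.6 and 82.3 CPM in 21%. These groups overlapped at both times, and the interaction of Nr0b2 was -0.51 ± 0.26 (adjusted p = 0.68). The export pump gene Abcb11 fell at CT4-8 (-0.88 ± 0.14, adjusted p = 0.00066) and had -0.49 ± 0.16 at CT16-20 (adjusted p = 0.079), with an interaction of 0.40 ± 0.21 (adjusted p = 0.68).

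Fatty acid and triglyceride synthesis had a median of 1.14 over 20 members tested, the highest of the lists, with 12 higher and 0 lower. At CT4-8, 7 members fell and 1 rose in 6% oxygen, and at CT16-20, 0 fell and 1 rose. The member that rose at both times was Srebf1, the transcription factor of lipogenesis, at 2.27 ± 0.25 and 2.65 ± 0.24 (adjusted p = 1.5e-05 and 1.2e-06), with an interaction of -0.38 ± 0.33. Acss2, which makes acetyl-CoA from acetate, had 114, 123 and 184 CPM at CT16-20 in 6%, against 162, 146, 138 and 88.6 CPM in 21%, and 44.2, 106, 67.7 and 46.7 CPM at CT4-8 in 6%, against 310, 297, 285 and 151 CPM in 21%. The groups of Acss2 overlapped at CT16-20 and did not at CT4-8, and the interaction was 2.04 ± 0.42 (adjusted p = 0.36, or 0.014 without CT4-8 6% replicate 2). Others were the elongase gene Elovl6 (2.21 ± 0.66), the desaturase gene Scd1 (2.20 ± 0.70), the synthase gene Fasn (1.89 ± 0.60) and the citrate lyase gene Acly (1.18 ± 0.33), with adjusted p = 0.44 to 0.48. DESeq2 called the interaction of 2 members, Acss2 (adjusted p = 0.0021) and Elovl6 (adjusted p = 0.048).

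The summed level of the 21 lipogenic members listed was 8810 to 9690 CPM at CT16-20 in 6%, against 7360 to 8910 CPM in 21%, and 4640 to 10500 CPM at CT4-8 in 6%, against 10400 to 19300 CPM in 21%. In air at CT4-8, replicates 1, 2 and 3 stood above all other libraries, and replicate 4 was just under replicate 2 of CT4-8 in 6%, so the groups overlapped. Cholesterol synthesis genes had 3 higher and 0 lower of 21 (median 0.38), with Fdps, Acat2 and Pmvk at that p, and DESeq2 called 1, Fdps. Oxidative phosphorylation subunits had 6 higher and 0 lower of 51 (median 0.22), 1 without the 3 libraries highest in acute-phase genes. That count was 11 without CT4-8 6% replicate 2 and 2 without CT4-8 6% replicate 1 or 4 or CT16-20 21% replicate 3. It was 3 without CT16-20 21% replicate 2 or CT16-20 6% replicate 1 or 3. The count over all genes at that p moved in the same direction in these fits, except without CT16-20 6% replicate 1, where it rose slightly. Whether the list's count moved more than that of all genes was not tested. In none of the lists for gluconeogenesis, fatty acid oxidation, lipid droplets, integrated stress, p53 targets, heat shock, xenobiotic metabolism, ribosomal proteins, ribosome biogenesis, hepatocyte factors, interferon, growth hormone and amino acid catabolism did more than 3 members pass in a direction. DESeq2 called 1 oxidative phosphorylation member, Cox8a, and 1 growth hormone target, Socs2.

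The endoplasmic reticulum (ER) unfolded protein response is the programme by which cells add chaperones and folding enzymes when unfolded proteins collect in the ER. Of its 20 members tested, all had a negative interaction and 15 had one at unadjusted p under 0.05 (median -0.91). Hspa5, the master chaperone BiP, had 293, 341 and 375 CPM at CT16-20 in 6% oxygen, against 342, 292, 812 and 522 CPM in 21%, and 705, 436, 382 and 376 CPM at CT4-8 in 6%, against 294, 202, 267 and 310 CPM in 21%. The 6% libraries were higher without overlap at CT4-8, and at CT16-20 the air replicates 3 and 4 were higher than the others. The interaction of Hspa5 was -1.38 ± 0.41 (adjusted p = 0.44), that of the disulfide isomerase gene Pdia3 -0.89 ± 0.26 (adjusted p = 0.44) and that of the co-chaperone gene Dnajb11 -1.05 ± 0.30 (adjusted p = 0.44). At CT4-8, 4 members rose, Dnajb9, Pdia3, Xbp1 and Herpud1, and the median response was 0.65. At CT16-20 edgeR called 0 and the median response was -0.37. There 1 member was higher and 5 were lower in 6% oxygen at an unadjusted p under 0.05 (18.1% of all genes, both directions together). DESeq2 called the interaction of 1 member, Dnajc3. Derl3 had the largest SE (-5.29 ± 2.04) and was at 0 in 3 of the 4 air libraries of CT4-8.

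The ER stress response element is the promoter motif bound by ATF6 with NF-Y, and it is shown here because it was found in many promoters of this list. The letters searched were CCAAT, then 9 bases of any kind, then CCACG, on either strand of a window from 250 bases before to 50 bases after the gene start (RefSeq, GRCm38.p6). The search was chosen after the values of the list had been seen. The motif was in 39 of 32851 windows (0.119%) and in 9 of the 19 list members with a window. These 9 were Calr, Canx, Creld2, Derl3, Dnajc3, Hsp90b1, Hspa5, Pdia6 and Syvn1. The first share counts windows and the second counts genes. The list was drawn up from genes known for the same response as the motif, so its higher share is not a finding of these data. The fixed letters are in capitals below, written 5′ to 3′ on the gene's strand. For Hspa5 (chr2:34772010-34772058, plus strand), Dnajc3 (chr14:118937812-118937860, plus strand), Pdia6 (chr12:17266476-17266524, plus strand), Syvn1 (chr19:6046517-6046565, plus strand) and Canx (chr11:50325785-50325833, minus strand) the motif runs with the gene, and for Calr (chr8:84847060-84847108, minus strand) and Creld2 (chr15:88819505-88819553, plus strand) it lies on the opposite strand.
Hspa5: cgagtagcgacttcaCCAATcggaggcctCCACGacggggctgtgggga
Dnajc3: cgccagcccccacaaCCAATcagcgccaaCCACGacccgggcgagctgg
Pdia6: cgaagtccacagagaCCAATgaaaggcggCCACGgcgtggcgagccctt
Syvn1: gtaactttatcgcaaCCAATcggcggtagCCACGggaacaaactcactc
Canx: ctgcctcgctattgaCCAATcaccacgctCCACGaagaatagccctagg
Calr: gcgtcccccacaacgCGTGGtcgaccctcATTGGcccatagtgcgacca
Creld2: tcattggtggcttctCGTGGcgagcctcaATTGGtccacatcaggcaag

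Of the 9 members whose window holds these letters, 8 had a negative interaction at unadjusted p under 0.05 (median -1.02), the exception being the lectin chaperone gene Canx (-0.36 ± 0.23). Of the 9 tested members with a window that lacks them, 7 did (median -0.83). A match of letters is not a measured binding site.

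Acute-phase and NF-kB target genes, made by hepatocytes and immune cells in inflammation, had a median of -1.62 over 22 members, the lowest of the lists that are not cell type markers, with 0 higher and 12 lower at unadjusted p under 0.05. DESeq2 called 2 of them, Steap4 (adjusted p = 0.021) and Saa4 (adjusted p = 0.048). The pattern was carried by some libraries of a group and not by others. Lcn2, the siderophore-binding lipocalin, had 287, 134 and 102 CPM at CT16-20 in 6% oxygen, against 66.7, 606, 717 and 374 CPM in 21%, and 1319, 29.8, 45.7 and 1360 CPM at CT4-8 in 6%, against 28.2, 54.8, 48.2 and 43.0 CPM in 21%. Replicates 1 and 4 of CT4-8 in 6% were thus over 20 times replicates 2 and 3 of the same group, and the interaction was -5.31 ± 1.71 (adjusted p = 0.49). The summed level of the list was 17800, 9220 and 6560 CPM at CT16-20 in 6%, against 7730, 18500, 50100 and 14400 CPM in 21%, and 39600, 6420, 9090 and 29400 CPM at CT4-8 in 6%, against 5800, 7360, 8900 and 8530 CPM in 21%. Air libraries of CT4-8 were all low, and CT16-20 21% replicate 3 and CT4-8 6% replicates 1 and 4 were the 3 highest.

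The same 3 libraries were the highest in 6 listed neutrophil markers, at 80.6, 63.8 and 77.6 summed CPM, with a range of 12.4 to 18.9 CPM at CT16-20 in 6%, 10.6 to 80.6 CPM at CT16-20 in 21%, 15.1 to 77.6 CPM at CT4-8 in 6% and 4.43 to 14 CPM at CT4-8 in 21%. The 3 neutrophil markers tested had a median interaction of -3.62. Markers of macrophages and Kupffer cells (11 of 11 listed) summed to 1260 to 1750, 1450 to 2080, 987 to 2830 and 1370 to 1650 CPM in the same order. Their part in the result was not tested. Without the 3 libraries, counts at unadjusted p under 0.05 were 2 lower for the acute-phase list, 5 lower for the ER list and 7 higher for fatty acid synthesis. Over all genes 430 of 8686 passed that p without them, against 657 of 8520 in the main fit. The 3 were picked by the summed level of the acute-phase list itself, so the fall in that list's count was built in. Without them Cyp7a1 kept its size (4.40 ± 0.68) but not its call (adjusted p = 0.32, with 12 libraries). The ER count was also 8 without CT4-8 6% replicate 1 or CT16-20 21% replicate 3, and 9 without CT4-8 21% replicate 1 or CT16-20 6% replicate 2. Plasma protein genes had 0 higher and 6 lower of 24 (median -0.37, 1 lower without the 3 libraries). Glucocorticoid-induced genes had 0 higher and 5 lower of 20 (median -0.29, 1 lower without the 3 libraries). Of them, 3 were lower without CT16-20 21% replicate 4, or CT16-20 6% replicate 2 or 3. In these fits, as in those given for the ER list, the count over all genes at that p fell too. That fall was slight without CT16-20 21% replicate 4.

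**Figure D3:**
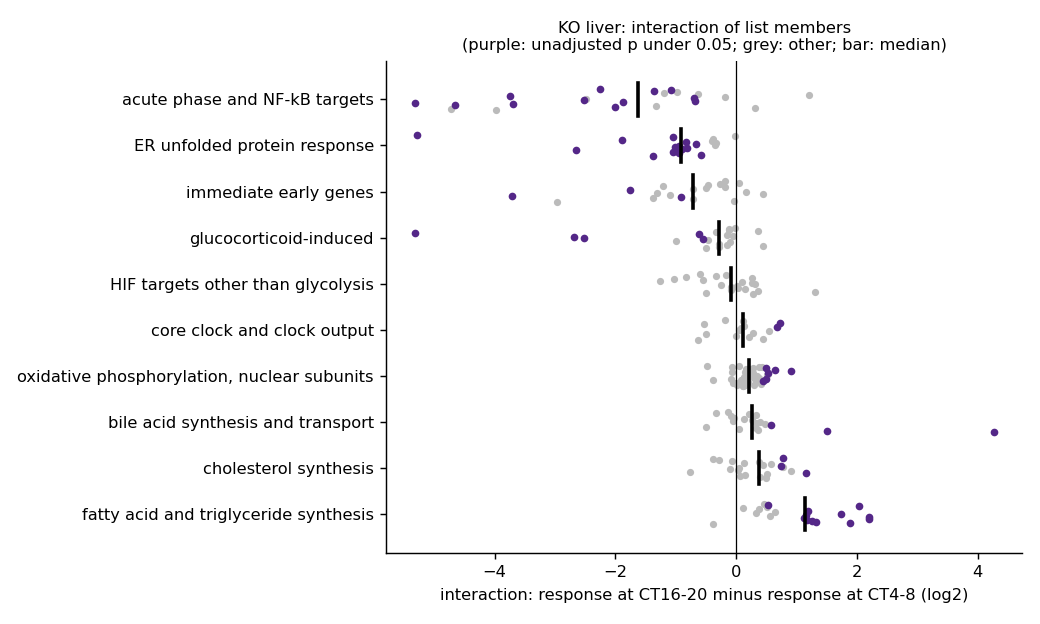
Interaction (log2, horizontal axis) of each tested member of 10 gene lists in KO liver, with purple points for an unadjusted p under 0.05, grey for the rest and a bar for the list median. The medians run from -1.62 for acute-phase genes and -0.91 for the ER list to 1.14 for fatty acid and triglyceride synthesis, and Cyp7a1 at 4.26 is the point farthest to the right.

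**Figure D4:**
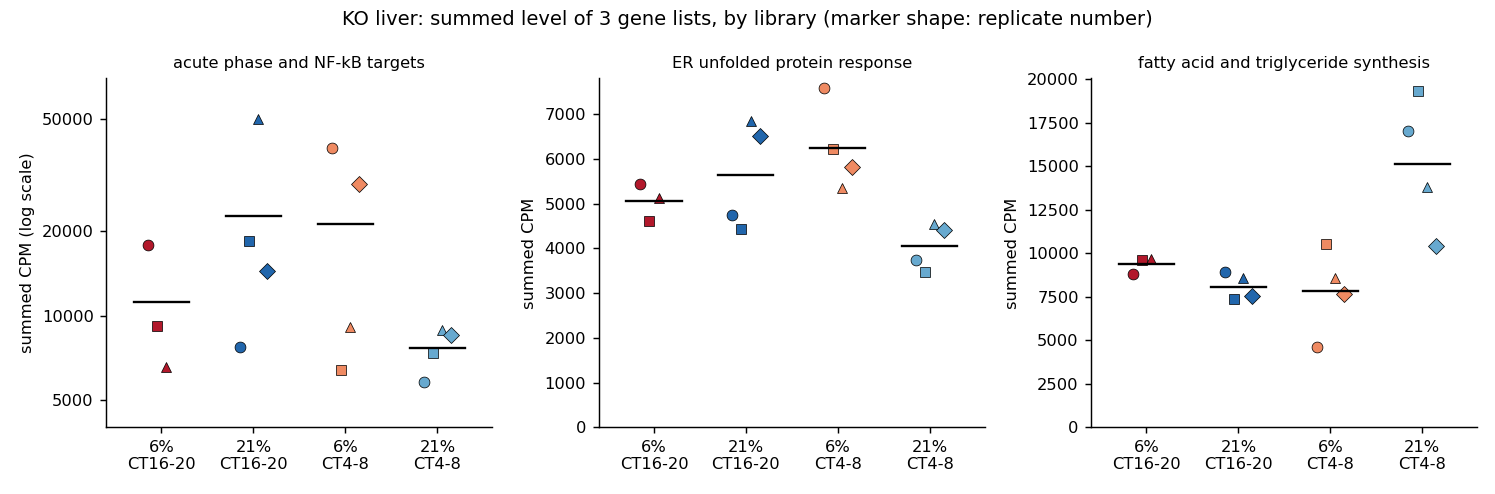
Summed CPM of the acute-phase, ER and fatty acid synthesis lists (vertical axes, the first on a log scale) in each KO liver library by oxygen and time, with marker shape for replicate number and a bar for the group mean. Acute-phase sums reach 50100 CPM in CT16-20 21% replicate 3 and 39600 CPM in CT4-8 6% replicate 1, against 5800 to 8900 CPM in air at CT4-8.

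Clock genes were read in both genotypes. In KO liver 2 of 15 members had a higher response at CT16-20 at unadjusted p under 0.05 and 0 a lower one (median 0.11), and neither edgeR nor DESeq2 called any. They were Nfil3, a repressor that opposes DBP (0.73 ± 0.31, adjusted p = 0.6), and Dbp (0.68 ± 0.31, adjusted p = 0.63). Per2, Cry2, Nfil3, Ciart and Bhlhe40 rose at both times, Nfil3 by 2.28 ± 0.22 at CT16-20 and 1.55 ± 0.21 at CT4-8 (adjusted p = 2.4e-06 and 9.8e-05). On the joint scale Dbp had 140, 142 and 133 CPM at CT16-20 in 6% oxygen, against 87.0, 118, 72.7 and 45.7 CPM in 21%, and 80.8, 117, 132 and 113 CPM at CT4-8 in 6%, against 78.8, 106, 104 and 119 CPM in 21%. Levels in KO were higher in 6% at CT16-20 without overlap, and overlapped at CT4-8.

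In WT liver Dbp had 46.9, 46.0, 23.1 and 50.9 CPM at CT16-20 in 6%, against 9.21, 9.51, 12.8 and 8.05 CPM in 21%, and 15.3, 97.0, 53.7 and 82.9 CPM at CT4-8 in 6%, against 263, 219, 240 and 197 CPM in 21%, on the joint scale. The WT response was thus opposite at the 2 times, with an interaction of 3.94 ± 0.56 (adjusted p = 0.0023). The difference in interaction, KO minus WT, was -3.26 ± 0.68 (95% interval -4.65 to -1.87, adjusted p = 0.059), outside the threshold. Arntl, the activator of the loop, had an interaction of -0.64 ± 0.39 (adjusted p = 0.73) in KO and -2.07 ± 0.48 (adjusted p = 0.03) in WT, and a difference between KO and WT of 1.44 ± 0.65 (adjusted p = 0.51).

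**Figure D5:**
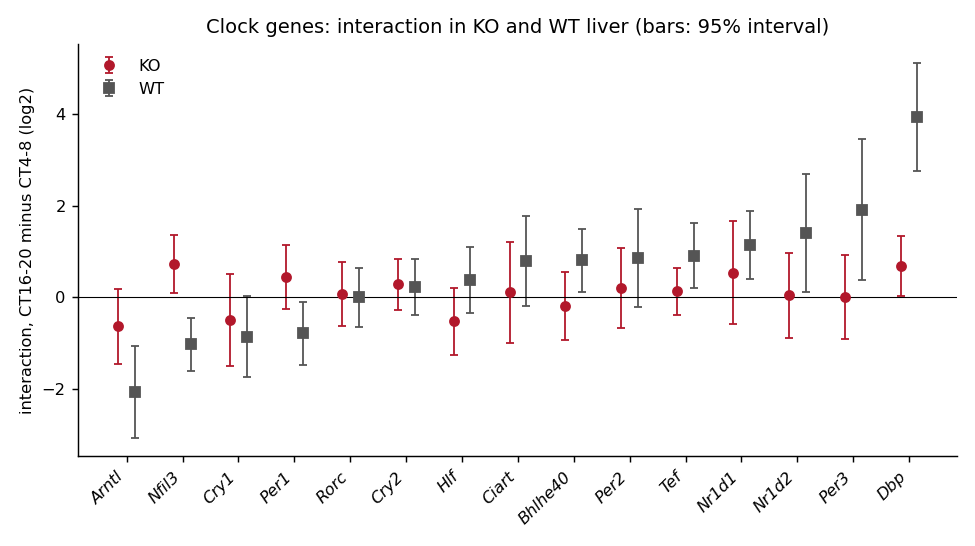
Interaction (log2, vertical axis) with its 95% interval for 15 clock genes in KO (red circles) and WT (grey squares) liver, ordered by the WT value. In KO the values lie between -0.64 (Arntl) and 0.73 (Nfil3), and in WT between -2.07 (Arntl) and 3.94 (Dbp).

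Over all genes the interaction in WT was called for 138 of 8507 (1.62%), with a median SE of 0.334 against 0.333 in KO. Of the 138, 134 were tested in KO, where 90 had the same sign. In KO, edgeR called 0 of them and DESeq2 1, Cox8a, with 14 of the same sign and 2 of the opposite sign at unadjusted p under 0.05. Their median size was 0.15 in KO in the WT direction, against 1.42 in WT, where they had been selected for size. These counts alone do not test a difference between genotypes. The WT count was 68 to 85 without WT CT4-8 6% replicate 2, 3 or 4, CT16-20 21% replicate 2 or CT16-20 6% replicate 1 or 4.

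The difference in interaction between KO and WT was called for 4 of 9011 genes (0.0444%), all with a higher value in KO: Slc45a3, Abtb2, Wrnip1 and 1700017B05Rik. Of these 4, 3 were also called for the interaction in WT. A higher value in KO need not be a larger interaction in KO, as it can come from a negative one in WT. Slc45a3, a sugar transporter gene of the solute carrier family, had 58.5, 56.2 and 55.5 CPM in KO at CT16-20 in 6% oxygen, against 44.5, 39.9, 54.6 and 75.0 CPM in 21%, and 44.0, 52.8, 43.5 and 64.4 CPM at CT4-8 in 6%, against 65.6, 35.8, 50.3 and 47.6 CPM in 21%. The KO groups overlapped at both times. In WT Slc45a3 had 64.4, 36.8, 62.0 and 63.5 CPM at CT16-20 in 6%, against 78.6, 101, 97.7 and 96.2 CPM in 21%, and 77.1, 72.6, 74.9 and 70.3 CPM at CT4-8 in 6%, against 22.4, 35.7, 23.5 and 24.7 CPM in 21%. The WT groups did not overlap and ran in opposite directions at the 2 times, and KO minus WT was 2.23 ± 0.39 (adjusted p = 0.016). For the helicase-interacting protein gene Wrnip1 it was 1.70 ± 0.33 (adjusted p = 0.039), for Abtb2 2.61 ± 0.51 (adjusted p = 0.039) and for 1700017B05Rik 2.77 ± 0.56 (adjusted p = 0.04). The count of 4 depends on single libraries, from 0 without KO CT16-20 21% replicate 1 to 19 without KO CT4-8 6% replicate 2. Slc45a3 had adjusted p = 0.0018 to 0.057 over the fits that each left out 1 library, and lost its call in 1 of them, without KO CT16-20 21% replicate 1. The other 3 were less firm: of the 31 fits that each left out 1 library, Wrnip1 lost its call in 15, Abtb2 in 17 and 1700017B05Rik in 21. With thinned counts they also lost their calls (adjusted p = 0.07, 0.098 and 0.12), as did 1700017B05Rik under the replicate block (adjusted p = 0.057). KO and WT were deposited in separate tables, so a shift between tables and genotype cannot be told apart, though each interaction is formed within a table.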

How the data were processed

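The authors deposited raw counts per gene symbol in 1 table per genotype for the constant-darkness livers, which were used as deposited. Per the submitters' processing notes the tools were STAR and HTSeq, after bcl2fastq and cutadapt, on mm10. Whether counting used strand is not given in the sources used here, nor are versions, so overlapping antisense genes are uncertain. Per the labels' protocols, RNA was amplified linearly by in vitro transcription. The smallest highest count of a listed gene was 6, so rarer genes are not listed. Of 10992 symbols in KO, 8520 passed edgeR's filterByExpr (minimum count 10, total 15).

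Counts were fitted with edgeR 4.0.16 in R 4.3.3 (TMM, robust quasi-likelihood, 4 groups in 1 fit). WT was fitted alike, and KO and WT jointly over symbols in both tables. Alternatives were RLE scaling, no filter, DESeq2 1.42.0, a replicate block, thinned counts, the joint fit, fits on the compared libraries, and leaving out each library. Leaving out the 3 libraries highest in acute-phase genes was added after seeing the data. The pipeline was tested on simulated data.

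The comparison and gene lists were chosen with earlier results of these data known. Named genes are the 20 with the smallest interaction p at 5 CPM or more, up to 6 rises and falls per response at 10 CPM or more, called differences from WT, up to 4 members per list by p, and a few clock and HIF genes anywhere. Printed outside this rule are Abcb11 and further members of the ER list, among them Dnajb9, Xbp1, Herpud1, Derl3 and Canx. Genes that the rule takes are not all printed, and 1 is not reported here. Gene spans are from GENCODE vM21, and promoter windows from RefSeq. No library pair was identical, and replicate letters do not pair mice.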

Additional observations from a re-analysis of the deposited data

Results flagged for a closer look

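Cyp7a1 had opposite responses at the 2 times, with an interaction of 4.26 on the log2 scale in KO liver. Its response at CT4-8 lost its call in 9 alternatives. The interaction lost its call without the 3 libraries highest in acute-phase genes (adjusted p = 0.32). The difference in interaction between KO and WT liver passed the threshold for Slc45a3 (2.23), Wrnip1 (1.70), Abtb2 (2.61) and 1700017B05Rik (2.77), of which the last 3 lost their calls in 15, 17 and 21 of the 31 fits without a single library. Single libraries stood apart within their group of 4 in 3 of 75 groups of values tested, and chance flags about 1 in 20. Acss2 had 150.7 CPM in CT4-8 21% replicate 4, against 284.9 to 309.6 CPM in the other 3 libraries. Ap2a1 had 15.2 CPM in CT4-8 21% replicate 1, against 8.81 to 9.23 CPM in the others. Cxcl13 had 11.9 CPM in CT16-20 21% replicate 1, against 26.9 to 28.9 CPM in the others.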

How the results depend on the processing

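Calls for the interaction in KO numbered 26 with DESeq2, 2 with thinned counts, 4 in the joint fit and 0 without the 3 libraries highest in acute-phase genes, and 1 to 13 without single libraries. In KO the response gave 242 calls at CT16-20 under the replicate block, and 167 to 499 there and 287 to 556 at CT4-8 without single libraries. Time in air gave 32 calls with DESeq2, 4 in the joint fit, 9 in a fit on the libraries compared and 0 to 4 without single libraries. Time in 6% oxygen gave 12 with DESeq2, 0 under the block, in the joint fit, in the fit on the libraries compared and without the 3 libraries, and 0 to 2 without single libraries, beside 458 genes at unadjusted p under 0.05 with edgeR. WT gave 68 to 197 and KO minus WT 0 to 19 without single libraries, and KO minus WT 33 with DESeq2. No value changed sign. The replicate block left 1 call for the interaction and 361 at CT4-8. Letters pair no mice (21 same-letter pairs, r from -0.27 to 0.16, median -0.06). With 3 or 4 mice a group, an interaction of a doubling or less is often within error. In simulated KO counts, with 200 of 8520 genes changed, an interaction of log2 1 was called for 19% and one of log2 2 for 85%. The simulation gave 107 calls, against 1 in the real data. A gene there could pass the adjusted threshold at a larger unadjusted p, so these shares do not carry over to the real interaction.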
